A study of Homo sapiens with 66 samples.

Results

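The members of the Wnt pathway described here are its secreted ligands, their receptors and co-receptors, the secreted and intracellular inhibitors, and the transcription factors at its end. They were chosen by name from the 58721 genes in the count tables: protein-coding genes called WNT, FZD, DKK or SFRP with a number, together with LEF1, TCF7, TCF7L1, TCF7L2, AXIN1, AXIN2, CTNNB1, LRP5, LRP6, ROR1, ROR2, RNF43, ZNRF3, NKD1 and WIF1. The rule gave 52 genes, of which 19 are Wnt ligands, 10 Frizzled receptors, 9 secreted antagonists, 4 TCF/LEF factors, 4 feedback inhibitors, 2 LRP co-receptors and 2 ROR receptors, with CTNNB1 and AXIN1 making up the last 2. The rule itself uses names and no measured value, and it was set with earlier results of these data known.

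The cells were A375, an established line from a human melanoma that carries mutant BRAF, and their mRNA was sequenced in 66 libraries that form 22 groups of 3. The Mediator experiment removed a subunit of Mediator, the complex that carries signals from transcription factors to RNA polymerase II: MED12, MED19 or MED23 was knocked out with either of 2 guides (sg1, sg2), and the reference cells (genotype WT) carried a guide against GFP. Each of these 7 cell populations was given 1 µM vemurafenib, an inhibitor of mutant BRAF, or DMSO for 24 h. In the SOX10 experiment SOX10 OE cells (GFPsg_SOX10OE) were set against cells with the empty vector (GFPsg_EV), and the same was done in cells with MED23 guide 1 (MED23sg1_SOX10OE and MED23sg1_EV). The HDAC3 experiment held HDAC3 KO, MED23 KO, HDAC3 MED23 double KO (dKO) and Ctrl cells. The labels give no drug or DMSO for the SOX10 and HDAC3 experiments. All comparisons were made within an experiment, since the batch label of the samples changes with the experiment. Whether the 3 replicates of a group came from separate cultures, and whether knockout populations were clones or pools, is not stated, so a p-value measures only the spread among these libraries.

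In the canonical branch a Wnt ligand binds a Frizzled receptor and LRP5 or LRP6, beta-catenin (the product of CTNNB1) escapes degradation by the complex that AXIN1 and AXIN2 scaffold, and beta-catenin joins LEF1 or a TCF factor on DNA. AXIN2, NKD1, RNF43 and ZNRF3 restrain the pathway and are widely used as signs that it is active, because beta-catenin induces them in many cell types. WNT5A, ROR1 and ROR2 belong to the branch that works without beta-catenin. In melanoma, WNT5A and ROR2 are known from invasive, poorly pigmented cells, and LEF1 and beta-catenin from the pigmented state.

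Library totals ran from 65.88 to 211.79 M counts in the Mediator experiment, from 24.87 to 30.77 M in the SOX10 experiment and from 58.84 to 106.19 M in the HDAC3 experiment, and 44, 34 and 34 of the 52 genes passed the filter on low counts. The knocked-out genes were at 24.2% (MED12), 48.1% (MED19) and 46.1% (MED23) of control mRNA in DMSO, and HDAC3 was at 51.0% in HDAC3 KO cells. SOX10 mRNA was higher in SOX10 OE cells by 0.19 (log2) in control cells and 0.80 in MED23 KO cells, and it was at 15.6%, 61.6% and 37.2% of control in MED12, MED19 and MED23 KO cells. The 10 melanocyte markers summed to 434.7 CPM (counts scaled to a common library size, with TMM factors) in the lowest group, MED12 guide 2 in DMSO, and to 2418 CPM in the highest, control cells under vemurafenib, with 7 to 9 of 10 at 1 CPM or more, and TYR at 0 in some groups. Blood, endothelial and epithelial marker sums stayed at or below 21.2 CPM in each group. In bulk RNA, fewer cells of a kind and less RNA per cell cannot be told apart, and the part of these marker shifts in the results below was not tested.

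A375 control cells in DMSO held most of the machinery for receiving a Wnt signal, and of the ligands mainly WNT5A. Genes were set side by side in CPM per kb of exon, the length being that of all annotated exons of a gene joined. The transcripts in use can be shorter, so the order between genes and the ligand shares depend on this length. It was 4761 bases for SFRP1 and 11927 for CTNNB1. On this scale the antagonist SFRP1 stood highest at 68.0 ± 1.07 (SD, n = 3), ahead of CTNNB1 at 54.9 ± 0.233. The antagonist DKK1, a blocker of LRP5 and LRP6, was at 33.7 ± 1.77. Below these came TCF7L2 (17.7 ± 0.373) and the receptor FZD6 (17.6 ± 0.333), a pair that did not differ beyond the replicate spread, then LRP6 (16.0 ± 0.336) and LRP5 (14.1 ± 0.694). The next pair, FZD7 (12.3 ± 0.194) and LEF1 (12.0 ± 0.327), again lay within its spread. WNT5A, at 6.48 ± 0.175 CPM per kb, was the highest of the ligands. It made up 59.5% ± 0.382 of the summed per-kb level of all ligands, ahead of WNT10B at 15.6% ± 0.951, WNT9A at 11.4% ± 0.701 and WNT3 at 7.59% ± 0.360. Of the TCF/LEF factors, TCF7L2 and LEF1 were far above TCF7L1 (0.824 ± 0.0656) and TCF7 (0.571 ± 0.0192). The feedback gene AXIN2 was at 0.113 ± 0.0152 and RNF43 stayed below 1 CPM in all 14 groups of this experiment.

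The genes not tested in the Mediator experiment were DKK4, FZD10, WIF1, WNT1, WNT2, WNT3A, WNT8A and WNT9B. A further 12 were tested but stayed below 1 CPM in each group (RNF43, SFRP2, SFRP4, SFRP5, WNT10A, WNT11, WNT16, WNT4, WNT5B, WNT7A, WNT7B and WNT8B). Of these only RNF43 and WNT5B are given with values in the comparisons below, and WNT4, WNT7B and WNT11 only among the flagged interactions. The canonical ligands WNT1 and WNT3A and the Wnt-binding inhibitor WIF1 were thus too low to test.

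**Figure D1:**
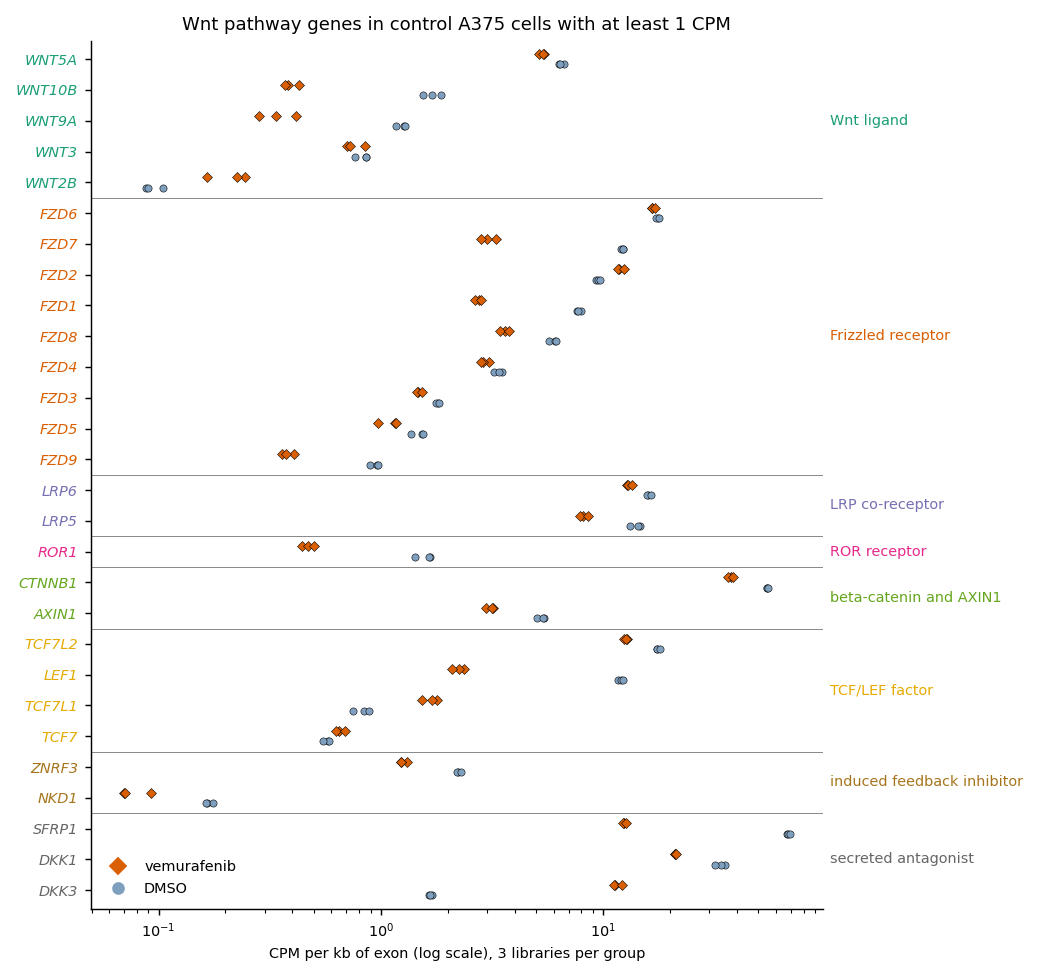
Levels of 28 members in control cells of the Mediator experiment, in CPM per kb of exon on a log axis, with diamonds for the 3 vemurafenib libraries and circles for the 3 DMSO libraries. SFRP1, CTNNB1 and DKK1 stand at the top in DMSO, and SFRP1, LEF1, FZD7, WNT10B and ROR1 lie clearly lower under vemurafenib while DKK3 and TCF7L1 lie higher.

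The promoters of 3 genes that recur in the results are shown, from RefSeq (GRCh38.p14), because WNT9A rose in each knockout of all 3 experiments, RNF43 had the highest fold of the feedback inhibitors in MED12 KO cells in DMSO, and DKK1 fell in each Mediator knockout in DMSO. Capitals mark the letters CTTTGT, a short form of the sequence that TCF/LEF factors bind and, read on the other strand as ACAAAG, of the one that SOX factors bind, so that the same letters serve for both. WNT9A lies at chr1:227947933-227948182 (minus strand), RNF43 at chr17:58417596-58417784 (minus strand) and DKK1 at chr10:52314031-52314280 (plus strand).
WNT9A: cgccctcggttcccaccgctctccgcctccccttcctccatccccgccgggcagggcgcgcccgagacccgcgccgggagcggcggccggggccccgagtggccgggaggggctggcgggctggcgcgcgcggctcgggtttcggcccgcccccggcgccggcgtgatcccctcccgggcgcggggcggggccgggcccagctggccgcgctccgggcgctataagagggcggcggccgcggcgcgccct
RNF43: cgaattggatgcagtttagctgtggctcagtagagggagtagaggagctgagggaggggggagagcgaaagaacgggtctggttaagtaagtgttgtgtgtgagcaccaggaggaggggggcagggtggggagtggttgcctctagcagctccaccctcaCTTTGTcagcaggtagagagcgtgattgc
DKK1: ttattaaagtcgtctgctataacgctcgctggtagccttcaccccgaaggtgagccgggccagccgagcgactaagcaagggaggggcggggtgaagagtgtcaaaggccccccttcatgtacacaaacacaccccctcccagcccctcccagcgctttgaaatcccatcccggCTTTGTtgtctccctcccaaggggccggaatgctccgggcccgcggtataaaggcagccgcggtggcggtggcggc
The WNT9A stretch has no match, and the other sequences have 1 each. The RNF43 stretch is from 1 of its 2 RefSeq promoters and ends at position -62. The RNF43 promoter not shown holds ACAAAG at -135. It also holds the TEAD letters counted below, read as CATTCC, at -189 and -180. Of 36 member genes with a RefSeq promoter of 300 bases, 8 held CTTTGT or ACAAAG (DKK1, FZD1, RNF43, ROR2, TCF7, TCF7L2, WNT3 and WNT8B), against 19.0% of all 27305 genes. A gene counts here if any of its promoters holds the letters. The longer CTTTGAT (on the other strand ATCAAAG) was in 0 of the 36 and in 3.18% of all. GGAATG, bound by TEAD factors, was in 3 (DKK1, RNF43 and WNT16) against 16.7% of all, and TCATGTG, an M-box, in 0 against 3.59%, each counted on both strands. A match is a description of letters and shows no binding.

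The comparison of vemurafenib with DMSO shows what inhibition of BRAF did in control cells, where most of the pathway's receiving side went down. Fold changes are on the log2 scale ± SE, adjusted p-values are Benjamini-Hochberg values from edgeR's quasi-likelihood test over all genes of the experiment, and rose and fell are used of genes with an adjusted p under 0.05. Of 44 members tested 8 rose and 25 fell, where 35.8% and 30.3% of all genes did. At a change of at least 2-fold the counts were 6 and 11, with a background of 18.5% and 11.2%. The members' median was -0.46 and that of all genes 0.11.

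Most receptors fell. Of 9 Frizzled receptors 7 fell and 1 rose, and both LRP co-receptors fell. FZD7 (ENSG00000155760, chromosome 2, 202034587 to 202038445, GRCh38), a receptor of the canonical branch, was at 12.8, 11.6 and 10.9 CPM under vemurafenib, against 46.4, 47.7 and 47.7 CPM in DMSO, a change of -2.01 ± 0.06, adjusted p = 4.7e-34. FZD1 changed by -1.50 ± 0.05, adjusted p = 1.7e-31, and FZD9 by -1.31 ± 0.17, adjusted p = 1.2e-09. FZD2 was the receptor that rose, by 0.33 ± 0.04, adjusted p = 5.4e-09. ROR1 (ENSG00000185483, chromosome 1, 63774022 to 64181498), a receptor tyrosine kinase for WNT5A, was at 2.98, 3.15 and 3.37 CPM, against 9.55, 11.2 and 11.1 CPM in DMSO, with no overlap (-1.75 ± 0.08, adjusted p = 1.3e-24).

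The TCF/LEF factors split. LEF1 (ENSG00000138795, chromosome 4, 108047545 to 108168956) was at 12.7, 12.1 and 11.2 CPM under vemurafenib, against 62.5, 64.8 and 66.0 CPM in DMSO (-2.43 ± 0.05, adjusted p = 3.7e-38). TCF7L1, known mainly as a repressor of Wnt targets, was at 6.78, 7.87 and 7.51 CPM, against 3.69, 3.32 and 3.89 CPM (1.02 ± 0.12, adjusted p = 6.5e-11). In control cells LEF1 was thus lower and TCF7L1 higher in each drug library than in any DMSO library. TCF7L2 fell less (-0.48 ± 0.03, adjusted p = 3.7e-19) and so did CTNNB1 (-0.55 ± 0.02, adjusted p = 6.4e-27). TCF7 rose by 0.20 ± 0.08 at an adjusted p of 0.018, but did not pass without GFPsg_DMSO replicate 3 (adjusted p = 0.084), without GFPsg_Vemu replicate 3 (adjusted p = 0.095) or when only these 2 groups were fitted.

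Antagonists moved both ways. SFRP1 (ENSG00000104332, chromosome 8, 41261958 to 41309497), which binds Wnt proteins outside the cell, was at 59.3, 58.6 and 60.5 CPM under vemurafenib, against 319, 323 and 329 CPM in DMSO (-2.44 ± 0.04, adjusted p = 9.4e-43). DKK3, the most divergent of the DKK family, was at 57.2, 56.9 and 61.6 CPM, against 8.38, 8.63 and 8.43 CPM (2.79 ± 0.05, adjusted p = 1.9e-40). DKK3 had the highest fold among the members above 1 CPM, while SFRP1 and LEF1 at the low end differed by less than their SE. DKK1 fell by less (-0.67 ± 0.05, adjusted p = 6.4e-16). DKK2 changed by -2.23 ± 0.47, adjusted p = 5.1e-05, on 20 counts over the 3 drug libraries, and by -1.64 without GFPsg_DMSO replicate 3.

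Among the ligands, WNT10B was at 1.00, 0.974 and 1.13 CPM under vemurafenib, against 4.88, 4.08 and 4.47 CPM in DMSO (-2.10 ± 0.16, adjusted p = 6.4e-17), and WNT9A, a canonical ligand, at 1.35, 1.65 and 1.12 CPM, against 5.05, 5.12 and 4.63 CPM (-1.86 ± 0.09, adjusted p = 2.0e-23). WNT2B, of whose exon bases 21.18% overlap another gene on the opposite strand, rose (1.16 ± 0.19, adjusted p = 6.4e-07), as did WNT6 (1.71 ± 0.35, adjusted p = 2.5e-05), which had 47 counts in all in DMSO. WNT5A changed by -0.28 ± 0.04, adjusted p = 1.5e-09, and its share of the per-kb ligand sum was 69.1% ± 1.73 under vemurafenib, against 59.5% ± 0.382 in DMSO, while the sum itself was 7.69 ± 0.117 against 10.9 ± 0.327 CPM per kb. WNT5B stayed below 1 CPM and changed by -0.84 ± 0.38, adjusted p = 0.047, a call lost when any 1 of 5 of the 6 libraries was left out.

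Of the 4 feedback inhibitors 3 fell and none rose. NKD1, which binds Dishevelled, changed by -1.11 ± 0.15, adjusted p = 7.6e-09, and ZNRF3, a ubiquitin ligase that removes Frizzled receptors from the membrane, by -0.83 ± 0.06, adjusted p = 6.8e-17. AXIN2 was at 0.281, 0.415 and 0.535 CPM, against 0.576, 0.517 and 0.675 CPM in DMSO (-0.52 ± 0.23, adjusted p = 0.041). That call was lost without GFPsg_DMSO replicate 1 or 3 or GFPsg_Vemu replicate 1 or 2, and when only these 2 groups were fitted; the change then lay between -0.57 and -0.31. RNF43 was at 0, 0.0675 and 0.0629 CPM, against 0, 0.112 and 0.0335 CPM, and did not pass (-0.28 ± 0.69, adjusted p = 0.74).

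Knockout of MED12, part of the kinase module of Mediator, gave the widest change of the members in DMSO. 14 of 44 rose and 22 fell (background 27.9% and 27.0%), and 9 rose and 11 fell at least 2-fold (background 9.91% and 5.72%). Knockout of MED19, of the middle module, raised 12 and lowered 19 (background 20.4% and 20.2%), with 5 and 2 at least 2-fold (background 3.56% and 2.74%). For MED23, of the tail module, the counts were 12 and 15 (background 18.4% and 18.5%), with 8 and 1 at least 2-fold (background 3.82% and 2.97%). The median change of the members was -0.20, -0.20 and -0.03, beside medians of 0.00, 0.00 and 0.01 over all genes. These 3 comparisons share their control libraries, so their values are given side by side.

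The ligand WNT9A (ENSG00000143816, chromosome 1, 227918656 to 227947898) stood out for rising with each subunit. In DMSO it ranged from 17.1 to 19.5 CPM (median 18.5) over the 6 MED12 KO libraries, from 25.1 to 28.1 CPM (median 27.0) over the 6 MED19 KO libraries and from 12.8 to 17.4 CPM (median 16.1) over the 6 MED23 KO libraries, against 5.05, 5.12 and 4.63 CPM in control cells. No knockout library overlapped the controls. The changes were 1.90 ± 0.06, adjusted p = 5.6e-30 for MED12, 2.45 ± 0.06, adjusted p = 2.3e-33 for MED19 and 1.68 ± 0.06, adjusted p = 2.9e-27 for MED23. WNT3, another canonical ligand, ranged from 10.2 to 12.7 CPM (median 10.4) in MED12 KO cells, against 3.72, 3.31 and 3.71 CPM in control cells (1.58 ± 0.08, adjusted p = 8.3e-23), and rose less with MED19 (0.95 ± 0.08) and MED23 (0.75 ± 0.08). WNT10B fell with all 3 (-1.11 ± 0.12, -0.78 ± 0.12 and -0.96 ± 0.12 for MED12, MED19 and MED23). WNT6 was low, with 47 counts over the control libraries, and its libraries overlapped theirs in MED12 KO cells (1.09 ± 0.32, adjusted p = 0.0035) and MED23 KO cells (1.34 ± 0.32, adjusted p = 0.00055).

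WNT5A (ENSG00000114251, chromosome 3, 55465715 to 55490539) rose with each subunit as well, most with MED23. It ranged from 59.0 to 62.4 CPM (median 61.4) in MED12 KO, from 68.8 to 77.8 CPM (median 74.1) in MED19 KO and from 94.1 to 111 CPM (median 106) in MED23 KO cells, against 49.4, 47.0 and 47.4 CPM in control cells, again without overlap. The changes were 0.35 ± 0.03, adjusted p = 4.0e-14, 0.62 ± 0.03, adjusted p = 3.1e-22 and 1.13 ± 0.03, adjusted p = 1.1e-32. The share of WNT5A in the per-kb ligand sum was lower in MED12 KO cells (48.9% ± 0.424 and 49.4% ± 1.21 with the 2 guides) and in MED19 KO cells (50.0% ± 0.412 and 50.2% ± 2.03), and higher in MED23 KO cells (67.0% ± 0.985 and 67.1% ± 1.39), than in control cells (59.5% ± 0.382). The ligand sum itself was 16.7 ± 0.429 and 16.9 ± 0.605, 20.4 ± 0.400 and 19.2 ± 0.201, and 20.3 ± 0.930 and 22.0 ± 0.201 CPM per kb in MED12, MED19 and MED23 KO cells, against 10.9 ± 0.327 in control cells. WNT5B, below 1 CPM in each group, changed by -1.36 ± 0.32, adjusted p = 0.0003 with MED12 and by -1.10 ± 0.32, adjusted p = 0.0046 with MED19. Its change with MED23, -0.97 ± 0.32, adjusted p = 0.013, was lost with guide 1 alone, without GFPsg_DMSO replicate 2 and without MED23sg2_DMSO replicate 1.

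Of 9 Frizzled receptors 7, 6 and 4 fell in MED12, MED19 and MED23 KO cells, and 2 rose in each. FZD7 ranged from 13.8 to 15.3 CPM (median 15.2) in MED12 KO, from 21.8 to 26.2 CPM (median 23.4) in MED19 KO and from 28.5 to 30.9 CPM (median 30.3) in MED23 KO cells, against 46.4, 47.7 and 47.7 CPM in control cells. This order, MED12 lowest and MED23 nearest to the controls, held without overlap between the 3 knockouts (-1.67 ± 0.04, -0.99 ± 0.04 and -0.66 ± 0.04, with adjusted p of 1.9e-34, 1.6e-24 and 5.9e-18). FZD4 ranged from 6.91 to 8.79 CPM (median 8.21) in MED12 KO cells, against 25.9, 24.0 and 25.2 CPM (-1.63 ± 0.05, adjusted p = 5.5e-31), and FZD8 from 7.58 to 9.06 CPM (median 8.98), against 22.9, 24.6 and 24.7 CPM (-1.50 ± 0.05, adjusted p = 1.6e-29). FZD4 counts carry the caveat that 18.95% of its exon bases overlap another gene on the opposite strand and the strand setting of the counting is not known. FZD2 and FZD6 were the 2 that rose in MED12 KO cells.

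The ROR receptors separated the subunits. ROR1 ranged from 30.0 to 34.2 CPM (median 32.2) in MED23 KO cells, against 9.55, 11.2 and 11.1 CPM in control cells (1.59 ± 0.06, adjusted p = 3.9e-26). In MED12 KO cells it ranged from 9.89 to 11.0 CPM (median 10.5) and did not pass (-0.02 ± 0.06, adjusted p = 0.83). In MED19 KO cells the change was -0.20 ± 0.06, adjusted p = 0.0079, which was lost with guide 1 alone and without GFPsg_DMSO replicate 2 or 3. Set directly against each other, MED12 and MED23 KO cells differed by -1.61 ± 0.05, adjusted p = 5.6e-31, and MED19 and MED23 KO cells by -1.79 ± 0.05, adjusted p = 1.1e-31. ROR2, below 1 CPM in DMSO, changed by -1.67 ± 0.34, adjusted p = 3.7e-05 with MED12 and -1.84 ± 0.36, adjusted p = 2.6e-05 with MED19.

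Of the TCF/LEF factors, 3 of 4 fell with MED12, 3 with MED19 and 3 with MED23. LEF1 ranged from 18.3 to 20.1 CPM (median 19.3) in MED12 KO, from 34.9 to 46.0 CPM (median 39.5) in MED19 KO and from 32.7 to 36.7 CPM (median 34.5) in MED23 KO cells, against 62.5, 64.8 and 66.0 CPM in control cells (-1.74 ± 0.04, adjusted p = 2.4e-36 for MED12, -0.69 ± 0.04, adjusted p = 1.2e-19 for MED19 and -0.89 ± 0.04, adjusted p = 6.2e-24 for MED23). All knockout libraries lay below the controls, and those of MED12 below the rest. TCF7L1 fell with each subunit too (-1.16 ± 0.11, adjusted p = 1.2e-13, -0.81 ± 0.11, adjusted p = 8.6e-09 and -0.92 ± 0.11, adjusted p = 3.2e-10). TCF7L2 fell with MED12 (-0.57 ± 0.03, adjusted p = 1.9e-24) and slightly with MED19 (-0.14 ± 0.03, adjusted p = 1.0e-05), while with MED23 its change was 0.03 ± 0.03, adjusted p = 0.46. TCF7 rose with MED19 (0.38 ± 0.07, adjusted p = 3.1e-06), had -0.01 ± 0.07, adjusted p = 0.93 with MED12, and its change of -0.17 ± 0.07 with MED23 (adjusted p = 0.034) was lost with guide 1 alone and without any of 5 single libraries. CTNNB1 changed little: -0.19 ± 0.02, adjusted p = 1.3e-12 with MED12, -0.09 ± 0.02, adjusted p = 0.00023 with MED19 and 0.01 ± 0.02, adjusted p = 0.61 with MED23.

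Of the feedback inhibitors, AXIN2 rose with each subunit. AXIN2 (ENSG00000168646, chromosome 17, 65528563 to 65561647) ranged from 1.39 to 1.92 CPM (median 1.85) in MED12 KO, from 3.38 to 4.04 CPM (median 3.86) in MED19 KO and from 1.09 to 1.45 CPM (median 1.28) in MED23 KO cells, against 0.576, 0.517 and 0.675 CPM in control cells. Its changes were 1.57 ± 0.17, adjusted p = 4.6e-11, 2.69 ± 0.17, adjusted p = 3.4e-18 and 1.13 ± 0.18, adjusted p = 5.3e-07, and no knockout library overlapped the controls. MED19 KO cells were above MED23 KO cells by 1.56 ± 0.12, adjusted p = 7.9e-15, and MED12 KO cells differed from MED19 KO cells by -1.11 ± 0.12, adjusted p = 4.5e-11. NKD1 rose with MED19, where it ranged from 6.86 to 8.07 CPM (median 7.32), against 2.87, 3.05 and 2.86 CPM in control cells (1.33 ± 0.12, adjusted p = 6.2e-13). In MED12 and MED23 KO cells NKD1 did not pass (-0.09 ± 0.12, adjusted p = 0.57, and 0.21 ± 0.12, adjusted p = 0.19). ZNRF3 changed by -0.20 ± 0.05, adjusted p = 0.0008 with MED12 and by -0.05 ± 0.05, adjusted p = 0.51 with MED23. Its change with MED19, 0.16 ± 0.05, adjusted p = 0.0084, was lost with guide 1 alone.

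RNF43, a relative of ZNRF3, was at 0.618, 0.394 and 0.281 CPM and 0.395, 0.520 and 0.624 CPM with the 2 MED12 guides, against 0, 0.112 and 0.0335 CPM in control cells, which held 24 counts in all (3.13 ± 0.50, adjusted p = 4.8e-07). In MED19 KO cells it was at 0.257, 0.329 and 0.259 and 0.0712, 0.231 and 0.225 CPM, partly within the range of the controls (2.06 ± 0.51, adjusted p = 0.00083), and in MED23 KO cells the change was -0.49 ± 0.61, adjusted p = 0.59. Without GFPsg_DMSO replicate 2 the first 2 changes were 4.45 and 3.38. In addition, 20.27% of the exon bases of RNF43 overlap an antisense gene.

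Of the antagonists, SFRP1 fell and DKK3 rose with each subunit. SFRP1 ranged from 74.3 to 96.1 CPM (median 90.4) in MED12 KO, from 185 to 239.6 CPM (median 209.6) in MED19 KO and from 177 to 194 CPM (median 186) in MED23 KO cells, against 319, 323 and 329 CPM in control cells (-1.89 ± 0.03, -0.63 ± 0.03 and -0.80 ± 0.03, with adjusted p of 4.6e-42, 1.2e-21 and 4.1e-26). DKK3 changed by 1.11 ± 0.05, adjusted p = 3.6e-25, 0.79 ± 0.05, adjusted p = 9.0e-19 and 0.40 ± 0.05, adjusted p = 3.1e-09. DKK1 (ENSG00000107984, chromosome 10, 52314296 to 52318042) fell with each, least with MED12 (-0.34 ± 0.04, adjusted p = 4.5e-09) and most with MED23 (-0.96 ± 0.04, adjusted p = 8.9e-24), with MED19 at -0.74 ± 0.04, adjusted p = 1.9e-19. It ranged from 36.8 to 39.7 CPM (median 38.5) in MED23 KO cells, against 77.9, 75.0 and 70.1 CPM in control cells. DKK2, another LRP-binding DKK protein, ranged from 2.91 to 3.51 CPM (median 3.07) in MED12 KO cells, against 0.215, 0.156 and 0.424 CPM in control cells (3.53 ± 0.27, adjusted p = 3.3e-16). Here 1 control library decided the size of the fold: without GFPsg_DMSO replicate 3 it was 4.12 for MED12, 1.89 in place of 1.29 for MED19 and 1.71 in place of 1.12 for MED23.

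**Figure D2:**
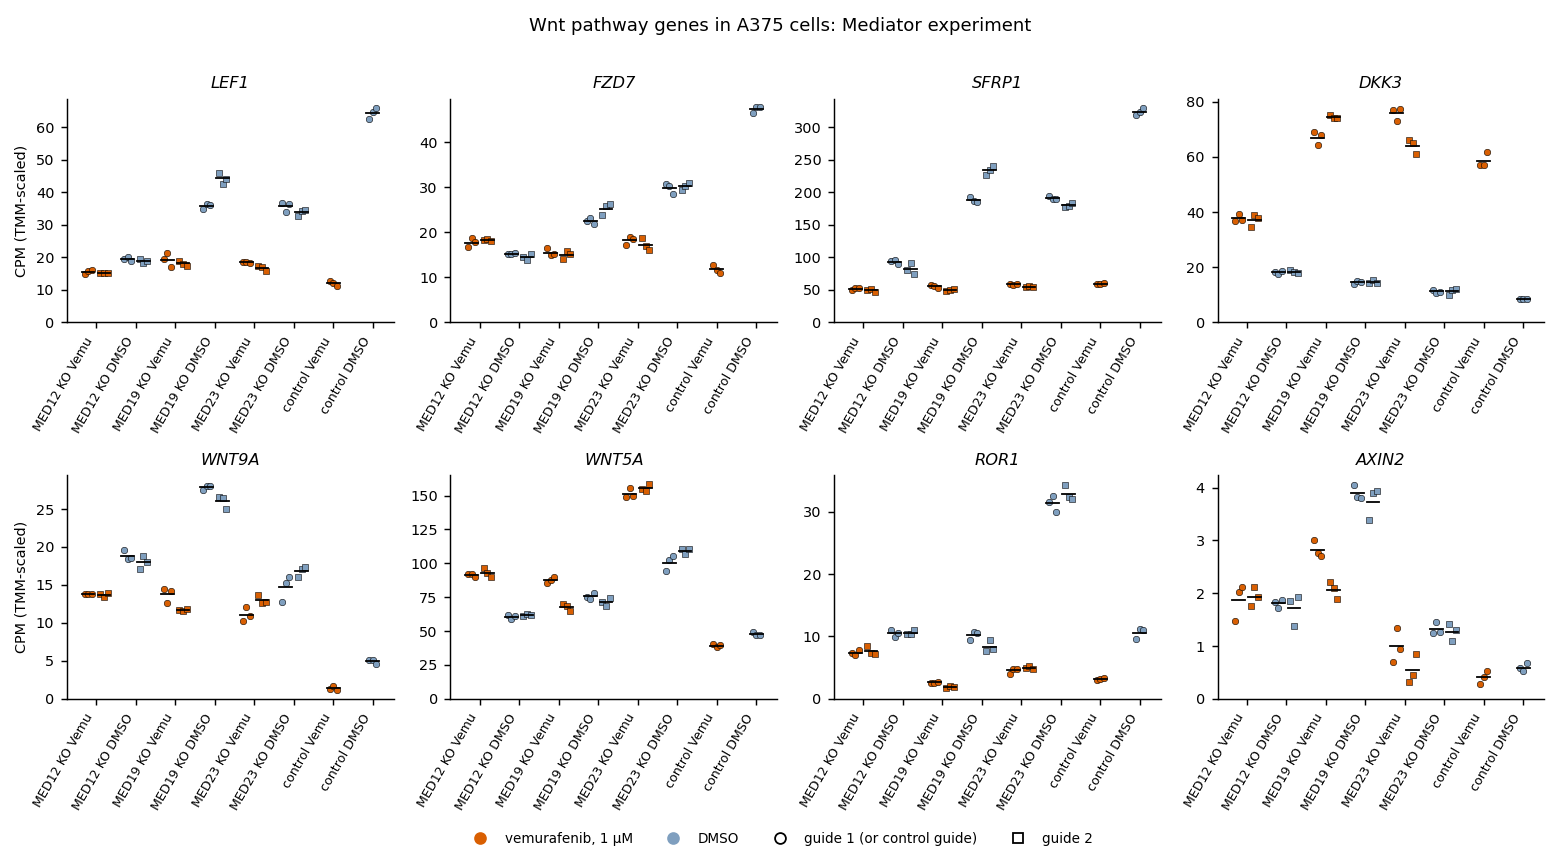
Levels (CPM, linear axis from 0) of LEF1, FZD7, SFRP1, DKK3, WNT9A, WNT5A, ROR1 and AXIN2 in each library of the Mediator experiment, with control cells on the right of each panel, circles for guide 1 or the control guide, squares for guide 2, and bars for the mean of each 3 libraries. WNT9A and AXIN2 lie above the control cells in the knockouts in DMSO, LEF1, FZD7 and SFRP1 below them, and ROR1 stands apart in MED23 KO cells in DMSO.

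The subunits were also set directly against each other in DMSO. MED12 minus MED19 gave 11 members higher and 21 lower (background 23.8% and 22.9%), with 4 and 6 at least 2-fold (background 6.42% and 2.83%). MED12 minus MED23 gave 12 higher and 20 lower (background 25.9% and 24.9%), with 3 and 4 at least 2-fold (background 6.90% and 3.35%). MED19 minus MED23 gave 12 higher and 14 lower (background 17.5% and 16.1%), with 3 and 4 at least 2-fold (background 1.84% and 2.00%). Besides ROR1 and AXIN2, above, DKK2 was higher in MED12 KO cells than in MED19 KO cells by 2.23 ± 0.19, adjusted p = 1.8e-14 and than in MED23 KO cells by 2.41 ± 0.19, adjusted p = 9.7e-16. SFRP1 was lower in MED12 KO cells than in MED19 KO cells (-1.26 ± 0.03, adjusted p = 7.9e-37) and in MED23 KO cells (-1.08 ± 0.03, adjusted p = 2.5e-34). FZD8 was lower in MED12 KO than in MED19 KO cells (-1.17 ± 0.05, adjusted p = 2.9e-27), and so was LEF1 (-1.05 ± 0.04, adjusted p = 2.9e-29). FZD7 was lower in MED12 KO than in MED23 KO cells (-1.01 ± 0.04, adjusted p = 1.1e-27). NKD1 was higher in MED19 KO cells than in MED23 KO cells (1.12 ± 0.10, adjusted p = 1.0e-13), and MED12 KO cells were below MED19 KO cells (-1.41 ± 0.10, adjusted p = 1.7e-17). WNT6, at low counts, had 1.51 ± 0.29, adjusted p = 2.1e-05 for MED12 minus MED19 and -1.76 ± 0.29, adjusted p = 1.7e-06 for MED19 minus MED23, with the libraries overlapping in both.

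RNF43 differed between MED12 and MED23 KO cells by 3.62 ± 0.42, adjusted p = 2.8e-10, with 4.32 for the first guides and 2.92 for the second. MED12 minus MED19 was 1.07 ± 0.34, adjusted p = 0.007, lost with guide 1 alone (0.61, adjusted p = 0.35), and MED19 minus MED23 was 2.55 ± 0.45, adjusted p = 7.4e-06, lost with guide 2 alone (1.40, adjusted p = 0.068). ROR2 was lower in MED12 KO than in MED23 KO cells (-1.14 ± 0.31, adjusted p = 0.0016), and its MED19 difference from MED23, -1.30 ± 0.32, adjusted p = 0.0011, was lost with guide 2 alone (-0.96, adjusted p = 0.11). In these knockout groups RNF43 had as few as 7 counts over 3 libraries and ROR2 as few as 30.

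WNT5A was lower in MED12 and in MED19 KO cells than in MED23 KO cells (-0.78 ± 0.02, adjusted p = 8.5e-31 and -0.51 ± 0.02, adjusted p = 7.3e-23), and MED12 minus MED19 was -0.26 ± 0.02, adjusted p = 5.9e-13. DKK1 was higher in each case (0.40 ± 0.04, 0.62 ± 0.04 and 0.21 ± 0.04 for MED12 minus MED19, MED12 minus MED23 and MED19 minus MED23). In the same order, TCF7L2 had -0.43 ± 0.02, -0.60 ± 0.02 and -0.17 ± 0.02, and CTNNB1 -0.11 ± 0.02, -0.21 ± 0.02 and -0.10 ± 0.02, all past the test. FZD7 was lower in MED12 than in MED19 KO cells (-0.68 ± 0.04) and in MED19 than in MED23 KO cells (-0.33 ± 0.04). LEF1 was lower in MED12 than in MED23 KO cells (-0.85 ± 0.04). Some smaller differences rested on 1 guide. LEF1 in MED19 minus MED23 (0.20 ± 0.04), ROR1 in MED12 minus MED19 (0.18 ± 0.05), TCF7L1 in MED12 minus MED19 (-0.35 ± 0.10) and ZNRF3 in MED19 minus MED23 (0.21 ± 0.04) were lost with guide 1 alone, and ZNRF3 in MED12 minus MED23 (-0.15 ± 0.04) with guide 2 alone. TCF7 in MED12 minus MED23 (0.16 ± 0.05) was lost with either guide alone, and TCF7L1 there (-0.24 ± 0.10) with guide 1 alone and without any of 5 single libraries. TCF7 was higher in MED19 KO cells than in MED12 KO cells (MED12 minus MED19 -0.39 ± 0.05) and MED23 KO cells (0.56 ± 0.05). ZNRF3 was higher in MED19 than in MED12 KO cells (MED12 minus MED19 -0.36 ± 0.04), and AXIN2 in MED12 than in MED23 KO cells (0.45 ± 0.13). TCF7L1 in MED19 minus MED23 did not pass (adjusted p = 0.41), nor did WNT5B in any of the 3 (adjusted p of 0.53, 0.29 and 0.79).

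Under vemurafenib the balance of the members in the knockouts turned upward. In MED12 KO cells 24 rose and 10 fell relative to control cells with the drug (background 32.5% and 29.6%), and 14 and 3 did so at least 2-fold (background 10.9% and 10.2%). For MED19 the counts were 20 and 9 (background 23.1% and 20.7%), with 7 and 1 at least 2-fold (background 4.00% and 4.12%). MED23 had 24 and 8 (background 24.6% and 22.7%), with 8 and 1 (background 5.71% and 5.92%). The members' medians were 0.29, 0.14 and 0.35, with -0.00, -0.01 and -0.01 over all genes. These comparisons share the control libraries under vemurafenib.

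WNT9A, WNT5A and WNT6 rose with each subunit. WNT9A ranged from 13.4 to 13.9 CPM (median 13.8) in MED12 KO, from 11.6 to 14.4 CPM (median 12.3) in MED19 KO and from 10.3 to 13.7 CPM (median 12.3) in MED23 KO cells under vemurafenib, against 1.35, 1.65 and 1.12 CPM in control cells with the drug. The 3 knockouts overlapped each other and lay far above the controls (3.34 ± 0.08, adjusted p = 2.8e-36, 3.22 ± 0.08, adjusted p = 9.9e-35 and 3.14 ± 0.08, adjusted p = 2.1e-34). WNT5A ranged from 149 to 159 CPM (median 154) in MED23 KO cells, against 40.1, 38.0 and 39.8 CPM in control cells (1.96 ± 0.03, adjusted p = 4.1e-42), and rose by 1.23 ± 0.03, adjusted p = 1.1e-34 with MED12 and by 0.97 ± 0.03, adjusted p = 6.5e-30 with MED19. WNT6 ranged from 1.67 to 2.36 CPM (median 2.02) in MED12 KO, from 0.744 to 1.27 CPM (median 1.06) in MED19 KO and from 2.12 to 3.33 CPM (median 2.59) in MED23 KO cells, against 0.332, 0.405 and 0.314 CPM in control cells (2.52 ± 0.24, 1.57 ± 0.24 and 2.92 ± 0.25). Here no knockout library overlapped the controls. WNT3 rose by 1.74 ± 0.08, adjusted p = 3.6e-24 with MED12. WNT5B, below 1 CPM, did not pass with MED12, MED19 or MED23 (adjusted p of 0.16, 0.096 and 0.064).

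AXIN2 rose again, ranging from 1.47 to 2.12 CPM (median 1.98) in MED12 KO cells and from 1.90 to 3.00 CPM (median 2.46) in MED19 KO cells, against 0.281, 0.415 and 0.535 CPM in control cells under vemurafenib (2.21 ± 0.19, adjusted p = 1.2e-14 and 2.55 ± 0.19, adjusted p = 3.0e-16). With MED23 the libraries overlapped the controls, and the change of 0.83 ± 0.21, adjusted p = 0.00082 was lost with guide 2 alone (0.39, adjusted p = 0.22). RNF43, below 1 CPM, changed by 3.32 ± 0.54, adjusted p = 4.7e-07 with MED12 and by -0.31 ± 0.71, adjusted p = 0.76 with MED23, and the 2.07 ± 0.57, adjusted p = 0.0021 of MED19 was lost with guide 2 alone (1.52, adjusted p = 0.064). ZNRF3 rose by 0.29 ± 0.05, adjusted p = 8.1e-06 with MED12 and 0.37 ± 0.05, adjusted p = 1.4e-07 with MED19, and had 0.08 ± 0.06, adjusted p = 0.24 with MED23. NKD1 did not follow: it did not pass with MED12 or MED19, and fell with MED23 by less than 2-fold. Of the 4 feedback inhibitors, 3 thus rose with MED12 and 3 with MED19, while with MED23 1 rose and 1 fell. DKK2 changed by 4.92 ± 0.36, adjusted p = 8.7e-17, 3.25 ± 0.40, adjusted p = 2.0e-09 and 3.58 ± 0.40, adjusted p = 9.0e-11, against 20 counts in the control libraries.

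LEF1 and FZD7, lower than control in every knockout in DMSO, were higher than control in every knockout under vemurafenib. LEF1 ranged from 14.9 to 16.2 CPM (median 15.3) in MED12 KO, from 17.1 to 21.2 CPM (median 18.5) in MED19 KO and from 15.9 to 18.6 CPM (median 17.7) in MED23 KO cells, against 12.7, 12.1 and 11.2 CPM in control cells (0.37 ± 0.05, adjusted p = 3.1e-09, 0.64 ± 0.05, adjusted p = 3.3e-16 and 0.55 ± 0.05, adjusted p = 7.6e-14). FZD7 ranged from 16.7 to 18.7 CPM (median 18.2) in MED12 KO, from 14.1 to 16.5 CPM (median 15.1) in MED19 KO and from 16.0 to 18.8 CPM (median 17.9) in MED23 KO cells, against 12.8, 11.6 and 10.9 CPM (0.62 ± 0.05, adjusted p = 1.3e-15, 0.37 ± 0.05, adjusted p = 1.3e-08 and 0.59 ± 0.05, adjusted p = 2.6e-14). Both genes stood far lower in drug-treated control cells than in DMSO, and the fold between knockout and control cells was smaller with the drug than without it for each subunit. TCF7 rose with MED19 (0.89 ± 0.07, adjusted p = 1.9e-16) and MED23 (1.00 ± 0.07, adjusted p = 3.9e-18), where it ranged from 12.1 to 14.5 CPM (median 13.1), against 6.52, 6.31 and 6.92 CPM in control cells, and had -0.13 ± 0.06, adjusted p = 0.089 with MED12. TCF7L1 was lower in all 3 (-0.83 ± 0.10, -0.64 ± 0.10 and -0.48 ± 0.10, the smallest at an adjusted p of 6.1e-05). TCF7L2 changed by -0.18 ± 0.03, adjusted p = 9.3e-08, 0.11 ± 0.03, adjusted p = 0.00063 and 0.36 ± 0.03, adjusted p = 4.9e-16.

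Among the receptors FZD8 fell in MED12 KO cells, to a range of 3.00 to 3.75 CPM, against 14.7, 13.8 and 15.2 CPM in control cells under vemurafenib (-2.12 ± 0.06, adjusted p = 1.4e-34). ROR1 ranged from 6.95 to 8.54 CPM (median 7.35) in MED12 KO cells, against 2.98, 3.15 and 3.37 CPM (1.25 ± 0.07, adjusted p = 2.4e-20), with -0.50 ± 0.08, adjusted p = 9.9e-07 for MED19 and 0.58 ± 0.08, adjusted p = 1.3e-08 for MED23. ROR2 passed 1 CPM only in MED23 KO cells with the drug, among the groups of this experiment, and ranged there from 1.13 to 1.91 CPM (median 1.31), against 0.315, 0.318 and 0.322 CPM in control cells (2.15 ± 0.34, adjusted p = 5.7e-07). DKK1 fell with MED19 (-0.88 ± 0.05, adjusted p = 8.5e-22) and was slightly higher with MED12 (0.17 ± 0.05, adjusted p = 0.0014). Its change with MED23, -0.19 ± 0.05, adjusted p = 0.0006, was lost with guide 2 alone (-0.11, adjusted p = 0.11). CTNNB1 changed by 0.14 ± 0.02, adjusted p = 6.2e-09, 0.11 ± 0.02, adjusted p = 9.2e-06 and 0.03 ± 0.02, adjusted p = 0.17.

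Whether the knockout effect differed between drug and DMSO was tested as an interaction, the change under vemurafenib minus that in DMSO. The interactions of the 3 subunits share the control libraries of both treatments. Of 44 members 27 had a positive and 4 a negative interaction with MED12 (background 24.9% and 24.2%), 25 and 5 with MED19 (background 17.4% and 15.2%), and 22 and 3 with MED23 (background 18.5% and 16.2%). At 2-fold the counts were 14 and 3, 7 and 2, and 11 and 2 (background 6.31% and 8.40%, 2.25% and 2.88%, and 2.78% and 3.58%). In each case they include WNT4, WNT5B, WNT7B and WNT11, which stayed below 1 CPM in each group. In MED12 KO cells 8 of 9 Frizzled receptors had a positive interaction, led by FZD7 (2.28 ± 0.07, adjusted p = 4.0e-32). LEF1 had 2.11 ± 0.06, adjusted p = 1.6e-31 with MED12, 1.34 ± 0.06, adjusted p = 5.2e-23 with MED19 and 1.44 ± 0.06, adjusted p = 2.9e-24 with MED23, and FZD7 1.36 ± 0.07, adjusted p = 1.9e-22 with MED19 and 1.25 ± 0.07, adjusted p = 4.0e-21 with MED23. WNT5A was positive with each as well (0.88 ± 0.04, 0.36 ± 0.04 and 0.83 ± 0.04), and TCF7L2 too (0.39 ± 0.04, 0.26 ± 0.04 and 0.33 ± 0.04). WNT9A passed 2-fold with MED12 (1.43 ± 0.10) and MED23 (1.46 ± 0.11). Past 2-fold with MED12 were also SFRP1 (1.65 ± 0.05), WNT10B (1.48 ± 0.19), FZD9 (1.23 ± 0.20) and FZD1 (1.01 ± 0.06), and, downward, DKK3 (-1.75 ± 0.06) and WNT2B (-1.32 ± 0.23, with the strand overlap given above). NKD1 passed 2-fold downward with MED19 (-1.15 ± 0.18) and FZD8 upward with MED23 (1.02 ± 0.08). At low counts WNT6 had 1.43 ± 0.42, 2.00 ± 0.46 and 1.59 ± 0.42, and ROR2 1.84 ± 0.48 with MED12 and 2.68 ± 0.47 with MED23. DKK2 had 1.39 ± 0.52, 1.95 ± 0.53 and 2.47 ± 0.52; without GFPsg_DMSO replicate 3 the first 2 were lost and all 3 shrank (0.80, 1.36 and 1.87).

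The interactions of ROR1 had opposite signs: 1.27 ± 0.10, adjusted p = 4.0e-16 with MED12 and -1.01 ± 0.10, adjusted p = 7.2e-12 with MED23, while that with MED19 (-0.30 ± 0.10, adjusted p = 0.021) was lost with guide 1 alone and without any of 4 single libraries. TCF7 interacted with MED19 (0.51 ± 0.09, adjusted p = 1.0e-05) and MED23 (1.17 ± 0.09, adjusted p = 5.3e-15) and not detectably with MED12 (-0.12 ± 0.09, adjusted p = 0.32). DKK1 had 0.51 ± 0.06, adjusted p = 2.4e-09 with MED12, -0.14 ± 0.07, adjusted p = 0.11 with MED19 and 0.77 ± 0.07, adjusted p = 7.4e-14 with MED23. CTNNB1 had 0.34 ± 0.03, adjusted p = 2.5e-15, 0.19 ± 0.03, adjusted p = 1.1e-07 and 0.02 ± 0.03, adjusted p = 0.68. ZNRF3 had 0.49 ± 0.07, adjusted p = 2.1e-07 with MED12 and 0.13 ± 0.08, adjusted p = 0.19 with MED23, and 0.21 ± 0.07, adjusted p = 0.027 with MED19, which was lost with guide 2 alone and without any of 5 single libraries. TCF7L1 did not pass with MED12 or MED19 (0.33 ± 0.15 and 0.17 ± 0.15), and its 0.44 ± 0.15, adjusted p = 0.014 with MED23 was lost with guide 2 alone and without GFPsg_DMSO replicate 3 or GFPsg_Vemu replicate 1. AXIN2 had 0.64 ± 0.26, adjusted p = 0.036 with MED12, a call lost with guide 1 alone and without any of 7 single libraries, and did not pass with MED19 or MED23 (-0.13 ± 0.26 and -0.30 ± 0.28). RNF43 passed with none of the 3 (adjusted p of 0.86, 1 and 0.92). WNT5B, below 1 CPM, had 1.90 ± 0.47, 1.80 ± 0.47 and 1.74 ± 0.47, the last lost with guide 1 alone (1.22, adjusted p = 0.088).

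**Figure D3:**
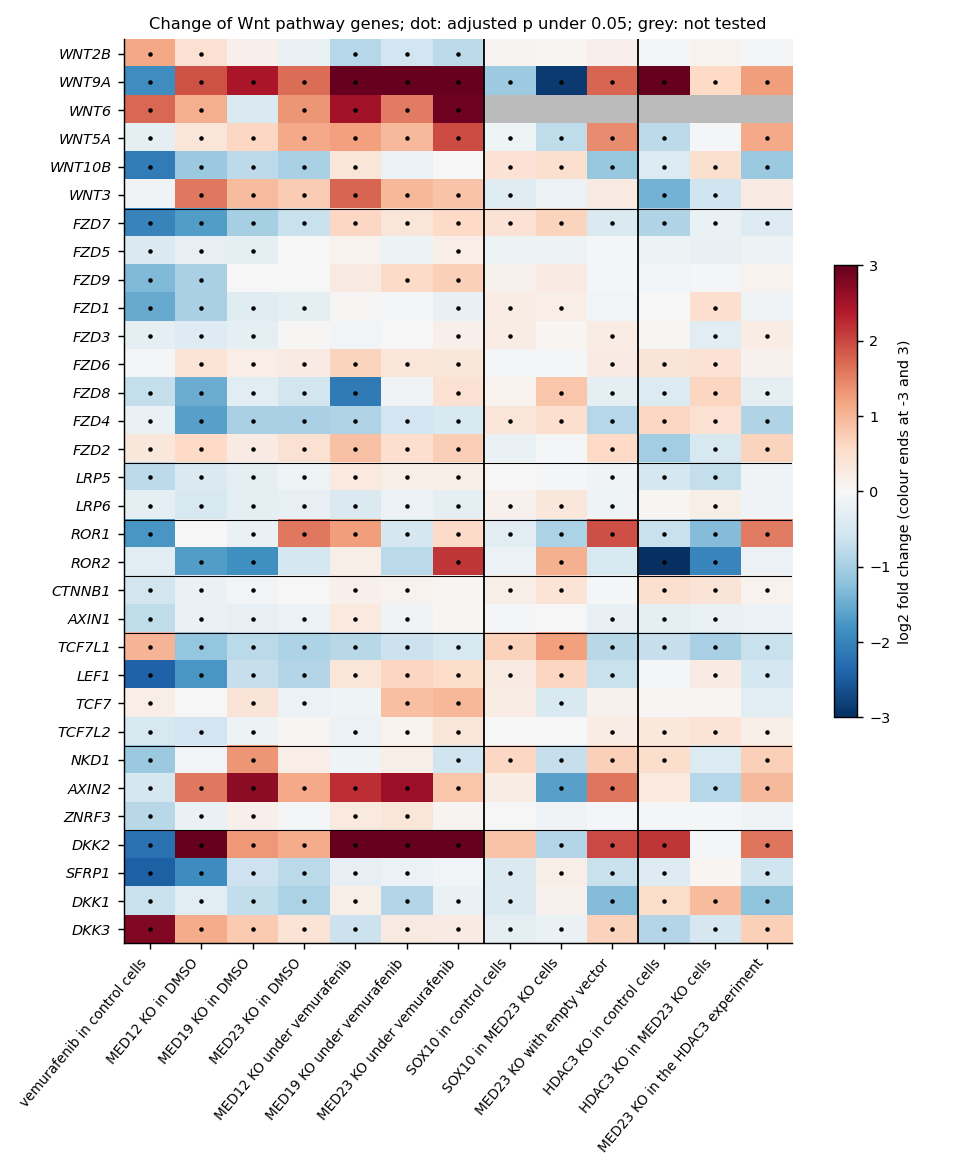
Log2 fold changes of 32 members in 13 comparisons of the 3 experiments; colour runs from -3 to 3, dots mark an adjusted p under 0.05 and grey marks genes not tested. WNT9A is higher in each Mediator knockout column, and LEF1 and FZD7 change from lower in DMSO to higher under vemurafenib.

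In the SOX10 experiment SOX10, a lineage factor of melanocytes, was supplied to cells with and without MED23. In control cells SOX10 OE raised 10 of 34 members and lowered 7 (background 11.6% and 11.0%), with 0 and 1 at least 2-fold (background 0.794% and 1.59%). In MED23 KO cells it raised 11 and lowered 9 (background 21.2% and 20.7%), with 2 and 3 at least 2-fold (background 2.14% and 3.28%). WNT9A was the single member past 2-fold in control cells, at 1.84, 1.83 and 2.07 CPM with SOX10, against 4.66, 3.33 and 4.15 CPM with the empty vector (-1.08 ± 0.14, adjusted p = 7.7e-07). Without GFPsg_EV replicate 1 its change was -0.97, still past the test but under 2-fold. In MED23 KO cells it was at 1.60, 2.24 and 1.79 CPM with SOX10, against 13.4, 13.5 and 14.1 CPM with the empty vector (-2.86 ± 0.11, adjusted p = 1.6e-18). With SOX10, the WNT9A values of MED23 KO and control cells overlapped.

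AXIN2 was at 0.532, 0.275 and 0.679 CPM with SOX10 in MED23 KO cells, against 1.64, 1.59 and 1.38 CPM with the empty vector (-1.63 ± 0.27, adjusted p = 1.6e-05), and in control cells its change was 0.22 ± 0.34, adjusted p = 0.72. ROR1 was at 17.3, 17.1 and 16.3 CPM, against 34.2, 31.6 and 31.9 CPM (-0.95 ± 0.06, adjusted p = 4.7e-14), and WNT5A at 57.1, 54.0 and 54.3 CPM, against 93.5, 91.0 and 94.0 CPM (-0.75 ± 0.04, adjusted p = 4.6e-15). These 3 genes, raised in MED23 KO cells with the empty vector, were all lower once SOX10 was added. With SOX10, ROR1 and WNT5A had means of 16.9 and 55.1 CPM in MED23 KO cells. Both stayed above control cells with the empty vector (8.55 and 34.7 CPM). Of other genes raised by MED23 KO, FZD2 did not pass with SOX10 there (-0.05 ± 0.06, adjusted p = 0.55), and DKK3 fell (-0.19 ± 0.08, adjusted p = 0.040). In control cells ROR1 changed by -0.33 ± 0.09, adjusted p = 0.0062, lost without GFPsg_SOX10OE replicate 3 (-0.22, adjusted p = 0.082), and WNT5A by -0.14 ± 0.05, adjusted p = 0.048, lost without 5 of the 6 single libraries and with 3 other settings.

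TCF7L1, LEF1 and FZD7, lower in MED23 KO cells with the empty vector, rose with SOX10. For these, as for the genes above, both changes rest on the same MED23 KO libraries with the empty vector. The opposite directions are therefore not independent of each other. TCF7L1 was at 3.26, 3.00 and 3.72 CPM with SOX10 in MED23 KO cells, against 1.49, 1.37 and 1.38 CPM with the empty vector (1.23 ± 0.15, adjusted p = 5.9e-08), and rose in control cells by 0.70 ± 0.13, adjusted p = 8.7e-05. LEF1 was at 52.2, 48.1 and 46.1 CPM, against 31.4, 32.1 and 30.9 CPM (0.64 ± 0.05, adjusted p = 2.7e-12), with 0.28 ± 0.04, adjusted p = 1.1e-05 in control cells. FZD7 rose in both, by 0.68 ± 0.05, adjusted p = 3.0e-12 in MED23 KO cells and 0.44 ± 0.05, adjusted p = 1.8e-08 in control cells, and so did CTNNB1, by 0.41 ± 0.03, adjusted p = 4.8e-13 and 0.18 ± 0.03, adjusted p = 1.2e-05. In both backgrounds, then, LEF1, FZD7, TCF7L1 and CTNNB1 moved in the same direction. DKK1, lower in MED23 KO cells with the empty vector too, did not pass with SOX10 there (0.13 ± 0.06, adjusted p = 0.073) and fell in control cells (-0.42 ± 0.05, adjusted p = 4.0e-08). SFRP1, also lower there, rose with SOX10 to a mean of 257 CPM, against 229 CPM with the empty vector. Control cells with the empty vector held 361 CPM of SFRP1. TCF7 fell in MED23 KO cells (-0.47 ± 0.10, adjusted p = 0.00048) and did not pass in control cells (0.23 ± 0.10, adjusted p = 0.1). TCF7L2 and ZNRF3 passed in neither (adjusted p of 0.97 and 0.19 in MED23 KO cells, 0.79 and 0.9 in control cells), nor did WNT5B (0.12 and 0.67).

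The difference between the SOX10 effects in MED23 KO and in control cells was positive for 7 members and negative for 7 (background 7.64% and 7.04%), with 0 and 4 at least 2-fold (background 0.777% and 0.777%). It was -1.78 ± 0.20, adjusted p = 7.7e-08 for WNT9A, -1.85 ± 0.44, adjusted p = 0.0038 for AXIN2, to which DESeq2 gave no adjusted p, and -1.32 ± 0.21, adjusted p = 2.8e-05 for NKD1, which was at 2.31, 2.27 and 1.79 CPM with SOX10 in MED23 KO cells, against 3.24, 3.47 and 3.61 CPM with the empty vector, and at 3.48, 3.34 and 2.84 against 1.94, 2.56 and 1.76 CPM in control cells. The fourth, DKK2, stayed below 1 CPM in this experiment and had no adjusted p in DESeq2 either. WNT5A (-0.61 ± 0.07, adjusted p = 4.2e-08), ROR1 (-0.62 ± 0.11, adjusted p = 0.0001), TCF7 (-0.70 ± 0.14, adjusted p = 0.00076), LEF1 (0.36 ± 0.06, adjusted p = 0.00017), CTNNB1 (0.23 ± 0.04, adjusted p = 9.0e-05) and DKK1 (0.55 ± 0.07, adjusted p = 2.2e-06) also differed, by less than 2-fold. FZD7 differed by 0.24 ± 0.07, adjusted p = 0.019, lost without any of 4 single libraries. TCF7L1, TCF7L2, ZNRF3 and WNT5B did not pass (adjusted p of 0.072, 0.88, 0.58 and 0.61). SOX10 mRNA itself was raised by more in MED23 KO than in control cells, as given above.

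**Figure D4:**
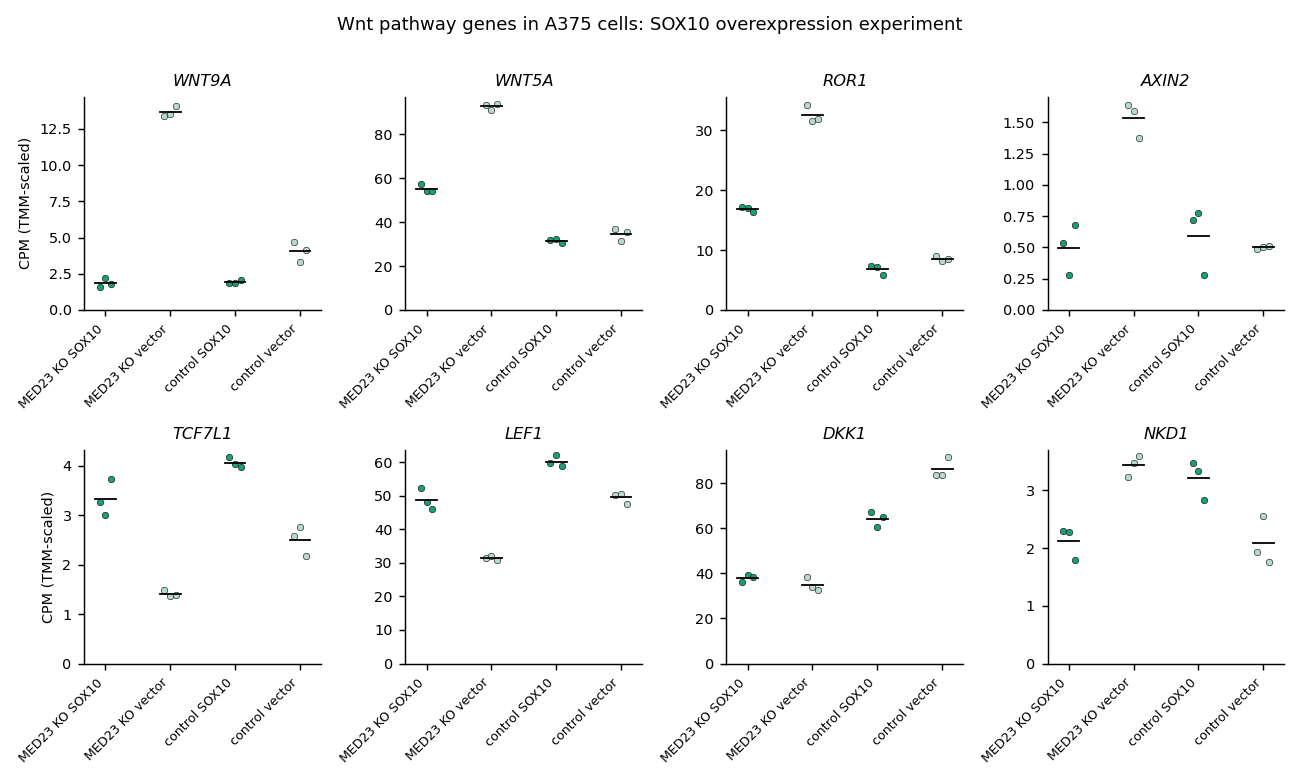
Levels (CPM, linear axis from 0) of WNT9A, WNT5A, ROR1, AXIN2, TCF7L1, LEF1, DKK1 and NKD1 in the 12 libraries of the SOX10 experiment, with SOX10 OE left of its empty vector in each pair and bars for the group means. In MED23 KO cells WNT9A, WNT5A, ROR1 and AXIN2 are lower and LEF1 and TCF7L1 higher with SOX10.

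HDAC3 is a histone deacetylase that works with the NCoR corepressors. The columns of this table that stand for Ctrl are named for GFP and were matched by elimination, which all comparisons with Ctrl rest on. In HDAC3 KO cells 8 of 34 members rose and 15 fell (background 21.2% and 20.9%), with 2 and 5 at least 2-fold (background 4.63% and 3.57%). WNT9A was at 29.2, 30.6 and 28.4 CPM in HDAC3 KO cells, against 3.97, 3.49 and 3.39 CPM in Ctrl (3.02 ± 0.10, adjusted p = 1.4e-16). WNT5A was at 26.7, 28.2 and 28.7 CPM, against 46.6, 46.8 and 49.6 CPM (-0.78 ± 0.05, adjusted p = 2.9e-11). As a share of the per-kb ligand sum WNT9A was at 58.0% ± 1.98 in HDAC3 KO cells, against 9.15% ± 0.610 in Ctrl, and WNT5A at 29.5% ± 0.798 against 64.8% ± 3.01. On the per-kb scale WNT9A thus took the first place among the ligands in these cells. That rank depends on the joined exon lengths, 3971 bases for WNT9A and 7397 for WNT5A. In CPM the HDAC3 KO libraries of WNT9A and WNT5A overlapped. WNT3 was at 1.01, 0.925 and 1.10 CPM, against 2.93, 2.67 and 2.57 CPM (-1.43 ± 0.14, adjusted p = 2.6e-08).

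FZD2 was at 4.66, 4.27 and 4.23 CPM in HDAC3 KO cells, against 9.29, 8.41 and 9.42 CPM in Ctrl (-1.04 ± 0.10, adjusted p = 7.0e-09), and FZD7 and ROR1 changed by -0.90 ± 0.06, adjusted p = 8.1e-11 and -0.66 ± 0.09, adjusted p = 1.3e-06. DKK2 was at 0.813, 1.67 and 1.41 CPM, against 0.202, 0.461 and 0.223 CPM (2.14 ± 0.32, adjusted p = 8.4e-06), with 90 counts over the Ctrl libraries. DKK1 was at 129, 142 and 137 CPM, against 87.4, 91.9 and 98.0 CPM (0.56 ± 0.05, adjusted p = 1.0e-08), and CTNNB1 at 766, 778 and 770.0 CPM, against 540.0, 551 and 556 CPM (0.49 ± 0.03, adjusted p = 1.0e-10). The HDAC3 KO libraries of DKK1 and CTNNB1 all lay above Ctrl, and those of FZD2, FZD7 and ROR1 below it. TCF7L1 fell (-0.69 ± 0.18, adjusted p = 0.004) and TCF7L2 rose (0.31 ± 0.04, adjusted p = 4.1e-06). LEF1, TCF7, AXIN2, ZNRF3 and WNT5B did not pass (adjusted p of 0.68, 0.87, 0.48, 0.73 and 0.065).

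In MED23 KO cells the further loss of HDAC3 raised 11 and lowered 12 members (background 19.1% and 18.9%), with 0 and 3 at least 2-fold (background 2.96% and 3.07%). ROR1 was at 11.7, 13.3 and 12.7 CPM in dKO cells, against 30.3, 33.4 and 29.5 CPM in MED23 KO cells (-1.30 ± 0.08, adjusted p = 1.5e-11), which put the dKO libraries just above those of Ctrl, at 9.99, 10.2 and 11.6 CPM. DKK1 was at 74.6, 77.4 and 80.3 CPM, against 39.6, 38.7 and 42.1 CPM (0.95 ± 0.05, adjusted p = 4.5e-12). WNT9A was at 14.4, 13.4 and 11.5 CPM, against 9.72, 7.65 and 8.47 CPM (0.60 ± 0.09, adjusted p = 2.1e-05), while WNT5A, at 99.0, 102 and 108 CPM against 103, 106 and 107 CPM, did not pass (-0.03 ± 0.05, adjusted p = 0.67). The double knockout therefore held WNT9A above MED23 KO but below HDAC3 KO cells. TCF7L1 fell (-0.98 ± 0.21, adjusted p = 0.00065), and LEF1 (0.24 ± 0.05, adjusted p = 0.0013), TCF7L2 (0.41 ± 0.04, adjusted p = 1.3e-07) and CTNNB1 (0.39 ± 0.03, adjusted p = 7.9e-09) rose. FZD7 changed by -0.21 ± 0.06, adjusted p = 0.012, lost without dKO replicate 1 or MED23KO replicate 2, and AXIN2, below 1 CPM in this experiment, by -0.85 ± 0.29, adjusted p = 0.027, lost without any of 4 single libraries. TCF7, ZNRF3 and WNT5B did not pass (adjusted p of 0.77, 0.84 and 0.69).

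The HDAC3 effect in MED23 KO cells minus that in Ctrl cells was positive for 10 and negative for 5 members (background 10.0% and 10.5%), with 1 and 2 at least 2-fold (background 1.42% and 2.13%). It was -2.42 ± 0.13, adjusted p = 1.3e-11 for WNT9A, -2.18 ± 0.44, adjusted p = 0.00077 for DKK2 and 1.04 ± 0.11, adjusted p = 3.6e-07 for FZD8, which was at 22.9, 24.2 and 22.2 CPM in dKO cells, against 15.9, 14.9 and 13.6 CPM in MED23 KO cells, and at 14.0, 15.0 and 11.8 CPM in HDAC3 KO cells, against 17.9, 18.2 and 17.8 CPM in Ctrl. WNT5A had 0.74 ± 0.07, adjusted p = 5.7e-08, FZD7 0.70 ± 0.09, adjusted p = 4.3e-06, ROR1 -0.64 ± 0.12, adjusted p = 0.00031, DKK1 0.39 ± 0.08, adjusted p = 0.00057 and LEF1 0.27 ± 0.08, adjusted p = 0.013. The count at 2-fold was 5 without Ctrl replicate 3 and 5 without dKO replicate 3. The other genes named in each comparison (TCF7, TCF7L1, TCF7L2, AXIN2, CTNNB1, ZNRF3 and WNT5B) did not pass, with adjusted p of 0.95, 0.54, 0.32, 0.062, 0.16, 0.96 and 0.38.

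**Figure D5:**
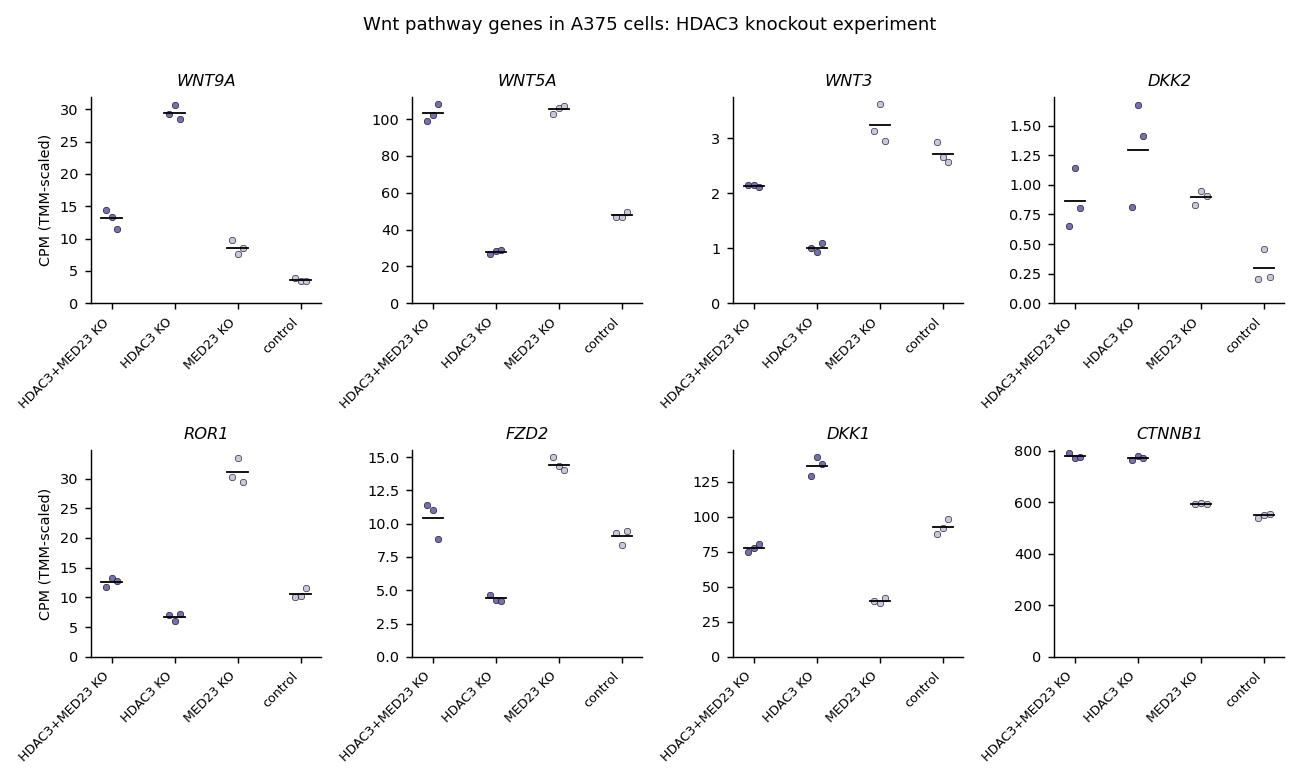
Levels (CPM, linear axis from 0) of WNT9A, WNT5A, WNT3, DKK2, ROR1, FZD2, DKK1 and CTNNB1 in the 12 libraries of the HDAC3 experiment, with dKO, HDAC3 KO and MED23 KO left of Ctrl and bars for the group means. WNT9A is highest and WNT5A and FZD2 lowest in HDAC3 KO cells, and ROR1 is highest in MED23 KO cells.

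MED23 KO was measured in all 3 experiments against separate controls, and 34 members were tested in each. At an adjusted p under 0.05, 7 were higher in all 3 (AXIN2, DKK2, DKK3, FZD2, ROR1, WNT5A and WNT9A) and 8 lower in all 3 (DKK1, FZD4, FZD7, FZD8, LEF1, SFRP1, TCF7L1 and WNT10B). Of the 17953 genes tested in all 3 experiments, 11.8% were higher and 11.2% lower in each. No member passed in opposite directions, 6 passed in none, and the other 13 passed in 1 or 2. Beside the Mediator values above, the changes in the SOX10 experiment (empty vector) and the HDAC3 experiment were 1.93 ± 0.07, adjusted p = 4.6e-20 and 1.55 ± 0.08, adjusted p = 6.3e-13 for ROR1, 1.42 ± 0.05, adjusted p = 4.3e-21 and 1.14 ± 0.05, adjusted p = 4.3e-14 for WNT5A, 1.75 ± 0.10, adjusted p = 5.0e-15 and 1.26 ± 0.10, adjusted p = 1.0e-09 for WNT9A, and -1.31 ± 0.05, adjusted p = 9.1e-19 and -1.20 ± 0.05, adjusted p = 8.2e-14 for DKK1. The ROR1 levels were 34.2, 31.6 and 31.9 CPM in MED23 KO cells with the empty vector, against 8.99, 8.21 and 8.44 CPM in control cells, and 30.3, 33.4 and 29.5 CPM in the MED23 KO cells of the HDAC3 experiment, against 9.99, 10.2 and 11.6 CPM in Ctrl. WNT10B fell by at least 2-fold in both of these (-1.13 ± 0.13 and -1.10 ± 0.14).

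LEF1 changed by -0.66 ± 0.05, adjusted p = 1.3e-12 and -0.52 ± 0.05, adjusted p = 7.8e-08, and FZD7 by -0.43 ± 0.05, adjusted p = 5.8e-08 and -0.39 ± 0.06, adjusted p = 3.8e-05. TCF7L1 changed by -0.82 ± 0.16, adjusted p = 9.8e-05 and by -0.67 ± 0.18, adjusted p = 0.0078, the last lost without Ctrl replicate 3. AXIN2 rose by 1.60 ± 0.28, adjusted p = 2.1e-05 with the empty vector, and its 0.98 ± 0.28, adjusted p = 0.013 in the HDAC3 experiment was lost without Ctrl replicate 3 or MED23KO replicate 2. DKK2 rose by 1.99 ± 0.34 and 1.60 ± 0.32, on low counts. TCF7L2, which did not pass in the Mediator experiment, rose by 0.22 ± 0.04, adjusted p = 9.4e-06 and 0.18 ± 0.04, adjusted p = 0.0034, and CTNNB1 had -0.06 ± 0.03, adjusted p = 0.12 and 0.11 ± 0.03, adjusted p = 0.018, the last lost without any of 3 single libraries and without the low-count filter. TCF7, ZNRF3 and WNT5B passed in neither (adjusted p of 0.36, 0.75 and 0.38 with the empty vector, and 0.073, 0.41 and 0.9 in the HDAC3 experiment). Of the 34 members, 6 rose and 2 fell at least 2-fold with the empty vector (background 2.98% and 2.53%), and 4 and 2 in the HDAC3 experiment (background 2.28% and 2.49%).

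Other genes of the pathway were read from 5 lists, each in all 21 comparisons. Counts are given below for only a part of these comparisons and do not stand for the rest. Of 11 tested genes known as beta-catenin targets, 1 rose and 9 fell in MED12 KO cells in DMSO, with a median of -0.65 beside 0.00 over all genes (background 27.9% higher and 27.0% lower). MED19 gave 0 and 8 (background 20.4% and 20.2%), MED23 1 and 7 (background 18.4% and 18.5%), and vemurafenib 6 and 4 (background 35.8% and 30.3%). For vemurafenib the count that fell was near the share of all genes. The largest changes were those of DCT, a melanin enzyme that melanocyte factors also drive (-4.99 ± 0.27 with MED12, -5.06 ± 0.27 with MED23 and 8.49 ± 0.12 with vemurafenib), of the receptor TNFRSF19 (-3.36 ± 0.05 with MED12 and -1.49 ± 0.05 with MED23), of MYC (-1.69 ± 0.07 and -3.26 ± 0.10 with MED12 and vemurafenib) and of cyclin D1, CCND1 (-3.77 ± 0.03 with vemurafenib). Several of these targets fell in the same MED12 KO libraries in which AXIN2 rose. In HDAC3 KO cells 5 of 10 rose and 1 fell (background 21.2% and 20.9%), with DCT at 7.22 ± 0.12 and MITF, the pigment regulator, at 1.66 ± 0.05.

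The list of Wnt secretion and of R-spondins, which keep RNF43 and ZNRF3 from removing receptors, had 5 of 17 higher and 6 lower with MED12 (median -0.37), near the shares of all genes (27.9% and 27.0%). The R-spondin receptor LGR6 rose with MED12 (1.91 ± 0.30), MED19 (2.17 ± 0.30) and MED23 (3.24 ± 0.30), and it fell with SOX10 OE in MED23 KO cells, to a mean of 0.0351 CPM, against 3.85 CPM with the empty vector. In control cells LGR6 was at 0 in the SOX10 OE libraries, against a mean of 0.225 CPM with the empty vector, and no fold is given. RSPO3, an R-spondin, rose to means of 0.0555 CPM in MED12 KO cells and 0.0429 CPM in control cells under vemurafenib, against 0 in control cells in DMSO, again without a fold. These RSPO3 levels are near the floor and rest on very few counts. In the list of the destruction complex and Dishevelled 8 of 18 rose and 6 fell with MED12, against the same shares of all genes. NKD2, a relative of NKD1, fell with each subunit (-4.03 ± 0.50, -2.21 ± 0.45 and -1.93 ± 0.44 for MED12, MED19 and MED23), and rose with SOX10 OE in MED23 KO cells (2.17 ± 0.46).

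Of 14 nuclear cofactors of beta-catenin 5 rose and 7 fell with MED12 (background 27.9% and 27.0%). TLE4 and TLE2, corepressors of TCF factors, changed by -1.63 ± 0.03 and -1.19 ± 0.12 with MED12, and TBL1X by -1.25 ± 0.03. Of 13 genes of the non-canonical and planar polarity list 4 rose and 7 fell in HDAC3 KO cells (median -0.28 beside -0.00, background 21.2% and 20.9%), with the polarity proteins VANGL2 and PTK7 at -1.74 ± 0.12 and -1.40 ± 0.07. DAAM2, a formin that acts downstream of Dishevelled, fell with MED12 (-2.45 ± 0.05), MED19 (-0.96 ± 0.04) and MED23 (-1.59 ± 0.04).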

How the data were processed

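RNA-seq reads of A375 cells were counted per gene by the authors, and the deposited files are 3 tables of raw counts, one for each experiment. Per the submitters' processing notes, bcl2fastq, HISAT2 and HTSeq were used with hg38. Per the labels' protocols, libraries were made with the KAPA Stranded mRNA-Seq kit. The strand setting of the counting, its annotation and the tool versions: not given in the sources used here. Counts of genes that overlap another gene on the opposite strand are therefore uncertain (12 members share exon bases with one, 3 of them over 10%). Genes were named with GENCODE 29, and the exon length of a gene is that of all its annotated exons there, joined.

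Each table was fitted separately in R 4.3.3 with edgeR 4.0.16 (quasi-likelihood test, 1 mean per group, TMM scaling, guides weighted equally), after filterByExpr at a minimum count of 10 and a minimum total of 15, which left 27453, 18009 and 21139 genes. P-values were adjusted over all of them by Benjamini-Hochberg. The SE was taken as the size of the log2 change over the root of the F statistic. Interactions were contrasts of the group means. DESeq2 1.42.0, other filters, the replicate block, single guides and leaving out each library were alternatives. On simulated counts for MED12 KO in DMSO, SOX10 in MED23 KO cells and HDAC3 KO in control cells the fit recovered 100, 100 and 99 of 100 genes changed 1.5-fold. The changed genes were drawn only from better expressed genes. Recovery at low levels, as for AXIN2, NKD1, DKK2, WNT6, ROR2 and RNF43, was therefore not simulated.

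The members, the gene lists and the tests were chosen with earlier results of these data known. Counts of members past a threshold include all those tested, also those below 1 CPM. Apart from the flagged interactions, values are given for members tested and at a mean of 1 CPM in at least 1 group. Named in each comparison are those at an adjusted p under 0.05 and at least 2-fold, and in any case WNT5A, WNT5B, FZD7, LEF1, TCF7, TCF7L1, TCF7L2, AXIN2, CTNNB1, DKK1, ROR1, RNF43 and ZNRF3 where tested. From the other lists up to 4 genes with the largest change are named.

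Replicates of a group differed by more than sampling noise, so none was counted as a repeat of another. Libraries with the same replicate number deviated together in every pair (correlation above 0.1) only for HDAC3 KO in MED23 KO cells, with correlations of 0.152 to 0.332, a pairing that rests on the data and not on the labels. The mean correlation there was 0.218. It was 0.312 for HDAC3 KO in control cells (0.092 to 0.568) and 0.231 for MED23 KO in the HDAC3 experiment (-0.081 to 0.490). The main fit used no pairing, and the fits with the replicate number as a block are given below. The Ctrl columns of the HDAC3 table were matched by elimination.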

Additional observations from a re-analysis of the deposited data

Results flagged for a closer look

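Effects that differed between conditions by at least 2-fold, by the interaction test with an adjusted p under 0.05, are collected here as log2 differences, for members at a mean of 1 CPM in at least 1 group of the experiment. For knockouts they give the effect under vemurafenib minus that in DMSO. With MED12 KO they were FZD7 (2.28), FZD9 (1.23), FZD1 (1.01), ROR1 (1.27), ROR2 (1.84), LEF1 (2.11), WNT2B (-1.32), WNT9A (1.43), WNT6 (1.43), WNT10B (1.48), DKK2 (1.39), SFRP1 (1.65) and DKK3 (-1.75). With MED19 KO they were FZD7 (1.36), LEF1 (1.34), WNT6 (2.00), NKD1 (-1.15) and DKK2 (1.95). With MED23 KO they were FZD7 (1.25), FZD8 (1.02), ROR1 (-1.01), ROR2 (2.68), LEF1 (1.44), TCF7 (1.17), WNT9A (1.46), WNT6 (1.59) and DKK2 (2.47).

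For SOX10 OE the effect in MED23 KO cells minus that in control cells was past 2-fold for WNT9A (-1.78), NKD1 (-1.32) and AXIN2 (-1.85). For HDAC3 KO the effect in MED23 KO cells minus that in Ctrl cells was past 2-fold for FZD8 (1.04), WNT9A (-2.42) and DKK2 (-2.18).

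Below 1 CPM, on few counts, WNT5B (1.90, 1.80 and 1.74 with MED12, MED19 and MED23), WNT7B (4.30, 4.07 and 3.28), WNT11 (1.82, 2.09 and 2.34) and WNT4 (-3.17, -2.56 and -3.36) also passed, and DKK2 did so for SOX10 OE (-1.74).

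Of the members at 1 CPM or more, LEF1, FZD7 and WNT6 were past 2-fold with each of the 3 Mediator subunits, and WNT9A with MED12, MED23, SOX10 and HDAC3. The Mediator interactions share their control libraries, so a result found with each subunit is not an independent repeat. DKK2 was past 2-fold with each Mediator subunit and HDAC3, but its MED12 and MED19 values were lost without GFPsg_DMSO replicate 3 (0.80, adjusted p = 0.25 for MED12 and 1.36, adjusted p = 0.064 for MED19). The MED12 value was also lost without GFPsg_Vemu replicate 3 (1.16, adjusted p = 0.1). The groups of 3 libraries were too small for a search for single outlying samples.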

How the results depend on the processing

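Counts of members past 2-fold depend on that minimum, as its construction makes them: by adjusted p alone they were 33 (vemurafenib in control cells), 36 (MED12 KO in DMSO), 31 (MED19 KO in DMSO), 27 (MED23 KO in DMSO), 34 (MED12 KO under vemurafenib), 29 (MED19 KO under vemurafenib), 32 (MED23 KO under vemurafenib), 31 (MED12 interaction with vemurafenib), 30 (MED19 interaction with vemurafenib), 25 (MED23 interaction with vemurafenib), 32 (MED12 KO minus MED19 KO in DMSO), 32 (MED12 KO minus MED23 KO in DMSO), 26 (MED19 KO minus MED23 KO in DMSO), 17 (SOX10 in control cells), 20 (SOX10 in MED23 KO cells), 23 (MED23 KO with empty vector), 14 (SOX10 by MED23 interaction), 23 (HDAC3 KO in control cells), 23 (HDAC3 KO in MED23 KO cells), 19 (MED23 KO in the HDAC3 experiment) and 15 (HDAC3 by MED23 interaction). In MED19 KO cells in DMSO guide 1 alone gave 12 (against 7 as reported). MED12 minus MED19 gave 5 with guide 1 alone (against 10 as reported), and MED19 minus MED23 gave 3 with guide 2 alone (against 7 as reported). The cause was not tested. DESeq2's Wald test gave 2 for the SOX10 interaction with MED23 (against 4 as reported), where it gave no adjusted p to AXIN2 and DKK2. Leaving out 1 library at a time gave, in the order above, 16 to 18, 18 to 21, 7 to 9, 8 to 10, 14 to 17, 7 to 10, 9 to 11, 15 to 17, 7 to 10, 12 to 15, 9 to 11, 5 to 8, 6 to 7, 0 to 1, 4 to 6, 8 to 8, 3 to 4, 7 to 8, 2 to 3, 6 to 7 and 2 to 5. The 0 for SOX10 in control cells came without GFPsg_EV replicate 1, and the 5 for the HDAC3 interaction without Ctrl replicate 3 and without dKO replicate 3.

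With the replicate number as a block the counts were 17 for vemurafenib and 8 for HDAC3 KO in control cells (against 7 as reported), 3 for HDAC3 KO in MED23 KO cells, and equal to the reported count in the other comparisons; of the single members the block ended the call of WNT5B under vemurafenib (adjusted p = 0.0504, against 0.047 without it). The mean correlation of same-numbered libraries was 0.006 in the Mediator, 0.043 in the SOX10 and 0.214 in the HDAC3 experiment. Of 284 results for named members, 35 lost their call under some alternative, 7 of them at least 2-fold in size, and none reversed. Over 1791 other alternatives 1759 kept the call and 32 did not, and over 2922 fits without 1 library 2853 did and 69 did not. Members below 1 CPM (RNF43, WNT5B and ROR2 in most groups) rest on few counts and depth limits their fold.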
